A study of Homo sapiens with 6 samples.

Results

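Interferon-stimulated genes are genes whose transcription rises when a cell meets interferon, and 48 of them, the members, were followed here by name in a table of 62754 genes. A gene was described when at least 10 counts were found in 3 or more of the 6 libraries, which 43 of the 48 met, and the same 43 passed the filter for testing that kept 19874 genes. OAS2, RSAD2, CMPK2, XAF1 and EPSTI1 stayed under this limit. The study examined whether silencing the acetyltransferase NAT10 changes how renal tubular cells respond to Cisplatin, a platinum drug that crosslinks DNA. RNA sequencing was performed on HK-2 cells, an immortalised line of human proximal tubular epithelium. All samples received Cisplatin, together with negative control siRNA in CP+siNC (n = 3) or with NAT10 siRNA in CP+siNAT10 (n = 3). The labels give neither dose nor time, no sample without Cisplatin or treated with interferon was analysed here, and a single cell line limits the model. The replicates are numbered in the labels but not said to be separate cultures, so p-values measure only the spread between these samples, which may be technical.

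Type I and type III interferons signal through paired receptors at the cell surface, whose kinases JAK1 and TYK2 phosphorylate STAT proteins. For these interferons, STAT2 and IRF9 are parts of a complex that enters the nucleus and binds the interferon-stimulated response element in the promoters of target genes. The products sense foreign RNA, block its translation or its entry, and modify proteins with ISG15, and tubular epithelium is known to switch on such genes in several forms of kidney injury.

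The libraries held between 19321665 and 25192736 counts. NAT10 itself (chr11:34105617-34147670, GRCh38), given in CPM, the counts scaled to library size with TMM factors, lay at 75.8, 71.4 and 73.2 in CP+siNC and at 41.3, 40.5 and 42.4 in CP+siNAT10, so the groups did not overlap. Its mean was 56.4% of that in CP+siNC. The log2 fold change was -0.82 (standard error, SE, 0.0426), and the p of the quasi-likelihood test in edgeR, after Benjamini-Hochberg adjustment over all tested genes, was 2.79e-15. All fold changes below compare CP+siNAT10 with CP+siNC in this test, and a gene was called when its adjusted p was under 0.05.

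The labelled cell type was compared with its markers. Of the 10 renal epithelial genes listed, KRT8 was the most abundant at a mean of 1452 CPM, and 4 of the 9 tested were called higher and 2 lower, against 21.8% and 22.3% of all tested genes. PAX8, a kidney lineage factor, lay between 30.1 and 32.8 CPM in CP+siNC and between 42.4 and 51.2 CPM in CP+siNAT10 (log2 fold change 0.59, adjusted p 1.58e-09), and KRT18, a keratin, was lower at -0.36. Of the 9 genes of the differentiated proximal tubule, 5 were at or near 0: SLC22A6 had no count in any library, and LRP2, CUBN, SLC34A1 and ANPEP reached at most 0.320 CPM. GGT1, a brush border enzyme, led that list at a mean of 30.3 CPM and was called lower at -0.28, while SLC5A2, a glucose transporter, lay between 8.31 and 11.7 CPM and was called higher at 0.31 (adjusted p 0.00363). The 9 leukocyte markers summed to 5.90, 5.84 and 5.35 CPM in CP+siNC and 4.89, 6.86 and 5.84 CPM in CP+siNAT10, with CSF1R the most abundant at a mean of 3.16 CPM. PTPRC, which defines leukocytes, lay at 0.425, 0.467 and 0.363 CPM in CP+siNC and at 0.475, 1.33 and 0.671 CPM in CP+siNAT10 (log2 fold change 0.96, SE 0.379, adjusted p 0.0411), and its part in the results was not tested. NKG7, at a similar level, went the other way, with 0.478, 0.514 and 0.675 CPM in CP+siNC and 0.285, 0.275 and 0.158 CPM in CP+siNAT10, but did not pass the filter for testing. The 5 endothelial markers summed to at most 0.514 CPM in a library. Of the 4 markers of plasmacytoid dendritic cells, which are strong producers of interferon, IL3RA and LILRA4 had no count in any library and only TCF4 was tested, with a log2 fold change of -0.04. The 6 fibroblast markers summed to 22.2, 23.5 and 21.8 CPM in CP+siNC and 23.5, 30.2 and 24.3 CPM in CP+siNAT10. COL1A1 was the most abundant of them at a mean of 12.1 CPM and was called higher (log2 fold change 0.38, adjusted p 6.22e-04). The libraries of CP+siNAT10 lay above those of CP+siNC for COL1A1 and COL3A1 and below them for PDGFRB. COL3A1 was not called, PDGFRB did not pass the filter for testing, and LUM was not called at 0.03. The part of these markers in the results was not tested.

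Most of the interferon-stimulated genes followed here were lower in CP+siNAT10 than in CP+siNC. The groups differ in the siRNA given as well as in NAT10, and the labels name no other NAT10 siRNA. An effect of the siRNA itself and one of lower NAT10 thus cannot be told apart. Of the 43 tested, 25 (58.1%) were called lower, against 22.3% of all tested genes, and 3 (6.98%) were called higher, against 21.8% of all tested genes. The members were chosen with earlier results of these data known, so these shares describe this list only. In a broader list of other interferon-induced genes, given below, 24.3% of 37 tested genes were lower and 37.8% higher. The members called higher were DDX60L, IFI35 and SAMD9L, and the remaining 15 were not called. The median log2 fold change of the 43 was -0.38, beside 0.01 over all tested genes, and 32 of the 43 had a negative value. A fall past 2-fold was called for 8 members, OASL, IFIT1, IFIT2, IFIT3, IFI44, IFI44L, HERC5 and ISG20, against 1.38% of all tested genes. A rise past 2-fold was called for 0 members by edgeR and by DESeq2, and also for 0 at an unadjusted p under 0.05, against 0.951% of all tested genes. All libraries of CP+siNAT10 lay below all libraries of CP+siNC for 28 members and above them for 5, against 25.7% and 25.7% of all tested genes. In bulk RNA, fewer cells expressing a gene and less RNA per cell cannot be told apart.

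Summed over the 48 genes, expression was 1852, 1818 and 1806 CPM in CP+siNC and 1354, 1380 and 1382 CPM in CP+siNAT10, or 75.2% of the CP+siNC level. The difference in means came to -452.9 CPM. IFIT2 and IFIT3 together made up 35.5% of it, and EIF2AK2 a further 8.34%. OASL had the lowest log2 fold change of all 19874 genes tested in this fit, and 4 members (OASL, IFIT1, IFIT2 and IFIT3) were among the lowest 100.

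Promoters are shown for the genes that fell most, which were chosen by the size of their fall. RefSeq promoter windows on GRCh38.p14, which run from 250 bases before to 50 bases after a transcript start, were matched by symbol for 40 of the 48 genes. IRF7, OAS2, OASL, IFIT2, USP18, IFITM2, MX2 and TRIM22 had no entry. A core of the interferon-stimulated response element, GAAA followed by any 2 bases and GAAA again, was searched on both strands, where it reads TTTC, any 2 bases and TTTC on the opposite strand. At least 1 match was found for 28 of the 40 genes (70.0%), and for 1195 of the 27305 genes with a window (4.38%). Among the genes called lower 16 of 21 with a window had a match, among those not called 9 of 12, and among those called higher 1 of 3. A match is a description of these letters and not of binding, and the genes were listed as known interferon targets. The 30 bases around the match nearest to the start are given 5′ to 3′ on the strand of the gene, with every match in capitals, for the 8 called genes with a match and the largest falls and for DDX60L, which rose.
IFIT1: agTTTCACTTTCcccTTTCGGTTTCcctag
IFIT3: atagggttccatcagTTTCACTTTCctttc
IFI44: gctgggcacactgagTTTCAGTTTCctttc
IFI44L: tctcttcctagtgagGAAAAAGAAAgttag
HERC5: acaacaaacattatgTTTCGTTTTCcactg
ISG20: cttgataacaaactaGAAACTGAAAcaggg
IFIH1: cctgagaagagaatcGAAACAGAAAccaaa
ISG15: atgcctcggGAAAGGGAAACCGAAActgaa
DDX60L: tcgcggtggagaaaaGAAACCGAAActaac

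These stretches lie upstream of RefSeq transcript starts. On the forward strand they are chr10:89392505-89392534 for IFIT1, chr10:89332463-89332492 for IFIT3, chr1:78649756-78649785 for IFI44, chr1:78620360-78620389 for IFI44L, chr4:88457030-88457059 for HERC5, chr15:88638932-88638961 for ISG20 and chr1:1013375-1013404 for ISG15. On the reverse strand they are chr2:162318691-162318720 for IFIH1 and chr4:168480528-168480557 for DDX60L. In GENCODE 29 the stretches of IFI44 and HERC5 overlapped no gene, and those of IFIT1 and IFIT3 lay in an intron of LIPA. Those of ISG15 and DDX60L lay in introns of longer transcripts of these genes. The stretches of IFIT3, IFI44L, ISG20 and IFIH1 overlapped an exon of a longer transcript of the same gene. IFIT1 and ISG15 held 2 matches within the stretch shown, which in ISG15 overlap.

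Among the transcription factors, STAT2 and IRF9, which act in the complex that binds this element, were lower, and IRF1 and IRF7 were not called. STAT2 lay at 67.9, 68.2 and 66.9 CPM in CP+siNC and at 57.2, 60.9 and 57.7 CPM in CP+siNAT10. IRF9 lay at 40.0, 40.3 and 38.9 CPM against 31.7, 31.4 and 28.0 CPM. The groups did not overlap for either gene, with log2 fold changes of -0.21 (SE 0.0408, adjusted p 1.18e-04) for STAT2 and -0.39 (SE 0.0521, adjusted p 3.75e-07) for IRF9. In GENCODE 29, 48.4% of the exon bases of IRF9 are shared with a longer transcript unit on the same strand, ENSG00000259529 (log2 fold change -0.15), and all stretches of 100 bases in the IRF9 transcript searched also occur in it, so reads of these genes may have been divided between them or dropped and the value of IRF9 is uncertain. IRF1, an activator that also responds to interferon-gamma, lay at 80.1, 80.0 and 81.9 CPM against 78.7, 74.8 and 79.3 CPM, with a log2 fold change of -0.06 (SE 0.0384, adjusted p 0.261) and groups that did not overlap. Genes on the opposite strand share 22.0% and 6.01% of its exon bases, so its counts are uncertain if strand was not used. The gene sharing 6.01%, ENSG00000283782, was called higher at 0.57, from a mean of 72.0 CPM to 106.7 CPM. The gene sharing 22.0% was not called at -0.03. IRF7, which amplifies interferon-alpha production, lay at 4.89, 5.32 and 5.87 CPM against 4.56, 4.76 and 5.05 CPM, with overlapping groups and a log2 fold change of -0.16 (SE 0.116).

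The RNA sensors did not share a direction. IFIH1, which encodes the sensor of long double-stranded RNA called MDA5, fell from 6.74, 7.05 and 7.01 CPM to 4.18, 3.71 and 3.47 CPM (log2 fold change -0.88, SE 0.115, adjusted p 2.78e-07). DDX60, a helicase described as an aid to RNA sensing, also fell, with a log2 fold change of -0.40. DDX60L, its paralog and neighbour on chromosome 4, rose from 25.5, 25.8 and 26.4 CPM to 35.9, 38.7 and 39.4 CPM (log2 fold change 0.56, SE 0.0517, adjusted p 6.10e-10), which was the largest rise among the 43 genes. TLR3, the endosomal receptor for double-stranded RNA, had fewer than 1 CPM in every library and a log2 fold change of -0.07 with an SE of 0.340, so only a large change would have been detectable at this depth.

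All 4 tested genes of the OAS and PKR group were called lower, against 22.3% of all tested genes. OASL, an OAS relative that lacks the enzymatic activity and binds RIG-I, had 9.61, 7.57 and 8.72 CPM in CP+siNC and 1.47, 1.19 and 1.07 CPM in CP+siNAT10. Its lowest control library was thus far above its highest silenced library, and its mean was 14.4% of the CP+siNC mean (log2 fold change -2.80, SE 0.151, adjusted p 7.13e-15). OAS1 and OAS3, which make the oligoadenylates that activate RNase L, lie next to each other on chromosome 12 and had log2 fold changes of -0.79 and -0.81. OAS2, in the same cluster, had at most 0.208 CPM in a library and was not tested. EIF2AK2, which encodes the kinase PKR that halts translation, fell with a log2 fold change of -0.59 and a mean of 66.4% of CP+siNC.

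The IFIT genes, whose products bind foreign RNA and keep it from being translated, fell most as a group, with a median log2 fold change of -1.36 and a summed level of 307, 309 and 302 CPM in CP+siNC against 127, 127 and 130 CPM in CP+siNAT10. IFIT2 went from 121, 116 and 121 CPM to 43.1, 42.0 and 44.9 CPM (log2 fold change -1.46, SE 0.0400, adjusted p 2.00e-21). IFIT3 went from 141, 144 and 135 CPM to 54.1, 55.3 and 55.9 CPM (log2 fold change -1.34, SE 0.0386, adjusted p 5.88e-21). IFIT1 went from 17.0, 17.7 and 17.3 CPM to 7.03, 7.14 and 6.08 CPM (log2 fold change -1.37, SE 0.0823, adjusted p 8.21e-14). For each of these genes the CP+siNAT10 libraries lay below every CP+siNC library, and the CP+siNAT10 mean was between 36.3% and 39.4% of the control mean. IFIT5, at the end of the same cluster on chromosome 10, fell less, with a log2 fold change of -0.38. LIPA, on the opposite strand, spans the positions of IFIT1, IFIT2 and IFIT3, shares 65 exon bases with IFIT2, and had means of 14.7 CPM in CP+siNC and 10.98 CPM in CP+siNAT10 (log2 fold change -0.42, adjusted p 5.96e-05). A gene on the same strand, ENSG00000232110, shares 356 exon bases (8.68%) with IFIT2 and was called lower at -0.54, so some reads of these genes may have been divided or dropped.

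**Figure D1:**
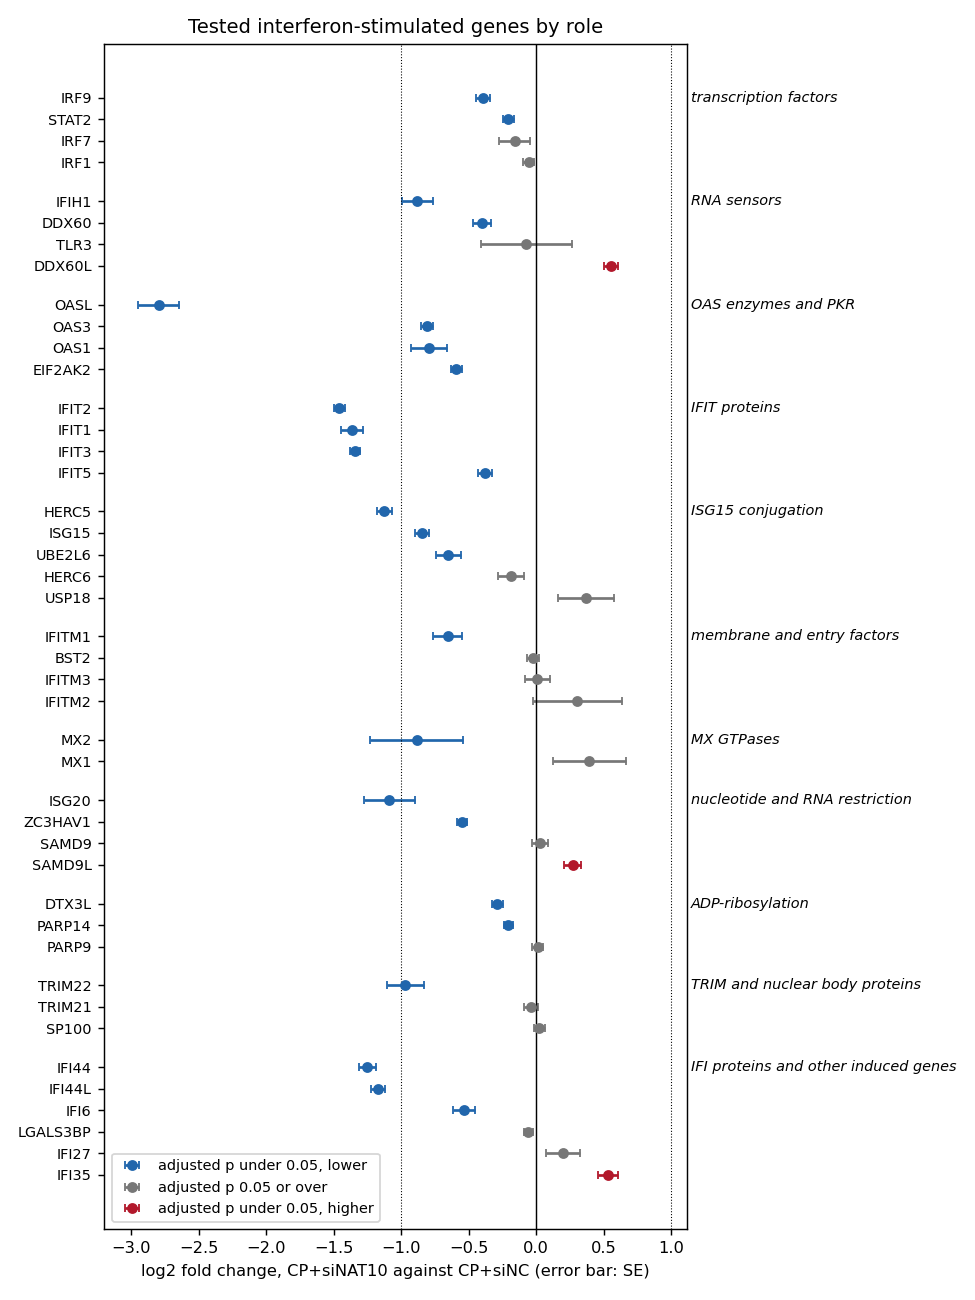
Points give the log2 fold change of each of the 43 tested genes, grouped by role, with bars for the SE, and dotted lines mark 2-fold in either direction. OASL, IFIT1, IFIT2, IFIT3, HERC5, ISG20, IFI44 and IFI44L lie furthest to the left, and DDX60L, IFI35 and SAMD9L are the genes called higher.

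Of the 5 genes of ISG15 conjugation, 3 (60%) were called lower, against 22.3% of all tested genes. ISG15, a ubiquitin-like modifier, lay at 60.9, 56.4 and 62.0 CPM in CP+siNC and at 36.2, 33.9 and 29.9 CPM in CP+siNAT10 (log2 fold change -0.85, SE 0.0551, adjusted p 4.10e-13). HERC5, the main ligase that attaches ISG15 to other proteins, lay at 44.9, 40.6 and 46.4 CPM against 19.4, 19.8 and 21.1 CPM (log2 fold change -1.13, SE 0.0566, adjusted p 1.53e-15). In both genes the groups were separate. UBE2L6, the conjugating enzyme that works with HERC5, had a log2 fold change of -0.65. HERC6, the neighbour and relative of HERC5, was not called at -0.19 (SE 0.0969). USP18, which removes ISG15 and restrains the type I receptor, was not called at 0.37 (SE 0.208) and had at most 2.01 CPM in a library. USP18 shares 15.4% of its stretches of 100 bases with USP41, so reads from these genes cannot be fully told apart.

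Of the 4 membrane and entry factors only IFITM1 was called, so 25% were lower, near the 22.3% of all tested genes. BST2, the tether that retains budding virus at the membrane, had the highest mean RPKM (CPM per kilobase of gene length) of the 48 genes, 118 in CP+siNC and 116 in CP+siNAT10. Its CPM values of 135, 136 and 120 overlapped those of 123, 126 and 136, with a log2 fold change of -0.02 (SE 0.0432) that turned positive in some alternatives without being called. IFITM3, which blocks virus entry from endosomes, lay at 8.44, 8.45 and 7.63 CPM against 8.60, 8.37 and 7.81 CPM, a log2 fold change of 0.01 (SE 0.0925) whose sign turned negative without CP+siNC replicate 3 or without CP+siNAT10 replicate 1. IFITM1, which acts at the cell surface, was called lower at -0.66, and IFITM2 was not called at 0.30 (SE 0.329). IFITM1 shares 37.7% of its stretches of 100 bases with transcripts of other genes, mostly IFITM2, and 351 exon bases are annotated to both, so the division of reads among these genes is uncertain.

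The MX genes encode dynamin-like GTPases that trap viral nucleocapsids, and both were close to the limit of detection. MX2 lay at 0.956, 0.887 and 0.519 CPM in CP+siNC and at 0.332, 0.412 and 0.513 CPM in CP+siNAT10 (log2 fold change -0.89, SE 0.344, adjusted p 0.0372). Its lowest control library and highest silenced library almost touched. The call was lost without CP+siNC replicate 1 (adjusted p 0.154), CP+siNC replicate 2 (0.126), CP+siNAT10 replicate 1 (0.122) or CP+siNAT10 replicate 2 (0.0952), with DESeq2 (0.148), with the replicate number as a block (0.0602) and with no filter on low counts (0.0546). MX1 had at most 1.24 CPM and was not called at 0.40 (SE 0.271).

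Of the genes that act on nucleotides and RNA, ISG20, an exonuclease, and ZC3HAV1, which encodes the antiviral protein ZAP that binds CpG-rich RNA, were lower. ISG20 lay at 2.39, 2.94 and 3.27 CPM in CP+siNC and at 1.52, 1.37 and 1.18 CPM in CP+siNAT10, with separate groups (log2 fold change -1.09, SE 0.188, adjusted p 2.18e-05). ZC3HAV1 had a log2 fold change of -0.55. SAMD9L, which restricts poxviruses, rose from 23.1, 21.3 and 20.9 CPM to 25.9, 28.1 and 24.8 CPM (log2 fold change 0.27, SE 0.0604, adjusted p 5.09e-04), while its neighbour SAMD9 was not called at 0.03 (SE 0.0612). RSAD2, which encodes viperin, and its neighbour CMPK2 had at most 0.478 CPM in a library.

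PARP14 and DTX3L, which take part in ADP-ribosylation, fell slightly, with log2 fold changes of -0.21 and -0.29. PARP9, the partner protein of DTX3L, lay at 53.4, 52.9 and 57.0 CPM against 55.6, 54.7 and 54.4 CPM, with overlapping groups and a log2 fold change of 0.01 (SE 0.0429) that turned negative without CP+siNC replicate 1 or 2. TRIM22, a ubiquitin ligase with antiviral activity, fell from 4.62, 4.72 and 4.88 CPM to 2.33, 2.61 and 2.33 CPM (log2 fold change -0.97, SE 0.136, adjusted p 1.01e-06). TRIM21, a cytosolic antibody receptor, and SP100, a nuclear body protein, were not called, at -0.04 (SE 0.0507) and 0.02 (SE 0.0430).

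In the remaining group, IFI44 and IFI44L, which are adjacent relatives on chromosome 1, fell to a similar degree. IFI44 lay at 31.8, 29.1 and 30.4 CPM in CP+siNC and at 12.3, 12.5 and 13.4 CPM in CP+siNAT10 (log2 fold change -1.25, SE 0.0623, adjusted p 1.25e-15). IFI44L lay at 48.9, 47.6 and 44.2 CPM against 19.997, 21.4 and 21.1 CPM (log2 fold change -1.17, SE 0.0528, adjusted p 1.81e-16). Neither gene had overlapping groups. IFI6, a small membrane protein, was lower at -0.53, and IFI27, its relative, was not called at 0.20 (SE 0.125). IFI35, a leucine zipper protein that forms a complex with NMI, rose from 11.05, 12.1 and 11.4 CPM to 15.7, 17.7 and 16.7 CPM (log2 fold change 0.53, SE 0.0738, adjusted p 7.58e-07). LGALS3BP, a secreted glycoprotein, lay at 111, 112 and 108.3 CPM against 105, 108.1 and 105 CPM and was not called (log2 fold change -0.06, SE 0.0353, adjusted p 0.195), although its groups did not overlap. XAF1 and EPSTI1 had at most 0.159 CPM in a library.

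**Figure D2:**
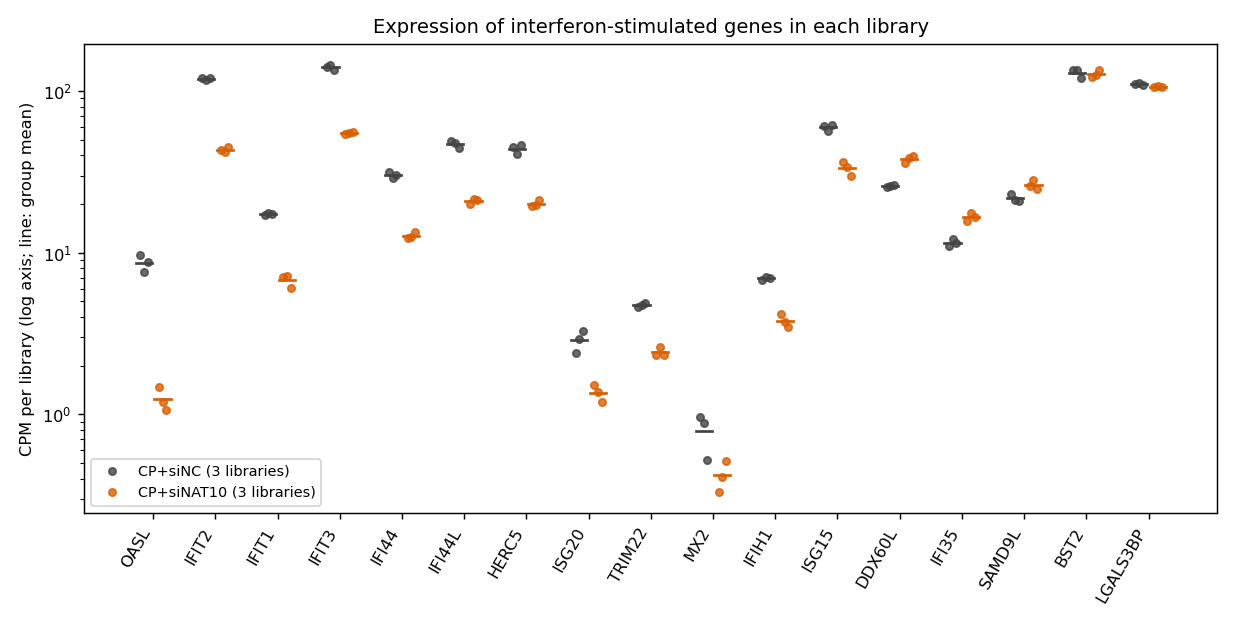
Points are the CPM of each library on a log axis, dark for CP+siNC and orange for CP+siNAT10, with a line at each group mean. The groups are apart for the genes from OASL to SAMD9L, narrowly so for MX2 (0.519 against 0.513 CPM), nearly touch for LGALS3BP and overlap for BST2.

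By length-corrected level, BST2, ISG15 and LGALS3BP came first in both groups, and the places after them changed. In CP+siNC the means were 68.9 RPKM for ISG15 and 32.3 RPKM for LGALS3BP, followed by 27.6 RPKM for IFIT3, 27.6 RPKM for IFIT2, 19.1 RPKM for PARP14 and 18.5 RPKM for TRIM21. In CP+siNAT10 they were 38.5 RPKM for ISG15 and 31.1 RPKM for LGALS3BP, followed by 18.001 RPKM for TRIM21 and 16.6 RPKM for PARP14. IFIT3 at 10.9 RPKM and IFIT2 at 10.01 RPKM lay below these in CP+siNAT10.

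Many of these genes lie in clusters, and neighbours were compared within each library, where a ratio does not depend on the scaling of libraries. Of 12 pairs of neighbours less than 60000 bases apart with both genes tested, the log2 ratio of CPM did not overlap between the groups in 9, against 39.0% of 15483 pairs of adjacent tested genes at such distances in the whole table. A ratio also separates when a gene changes and its neighbour does not, and members were called more often than other genes. The 9 include pairs with MX2 and IFITM2, which had low counts, and some pairs share a gene. With 3 libraries against 3 a two-sided exact permutation test cannot give a p below 0.1, so these ratios are given as values. For DDX60 against DDX60L, which lie 37927 bases apart on the same strand, the log2 ratio was -0.41, -0.34 and -0.45 in CP+siNC and -1.35, -1.32 and -1.39 in CP+siNAT10. For HERC6 against HERC5 it was -2.32, -2.32 and -2.48 against -1.55, -1.33 and -1.45. For IFIT1 against IFIT5 it was -0.76, -0.79 and -0.74 against -1.70, -1.64 and -1.91. The genes of these pairs thus changed by different amounts, whereas the ratios of OAS1 to OAS3, IFI44L to IFI44 and IFIT3 to IFIT1 overlapped between the groups.

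**Figure D3:**
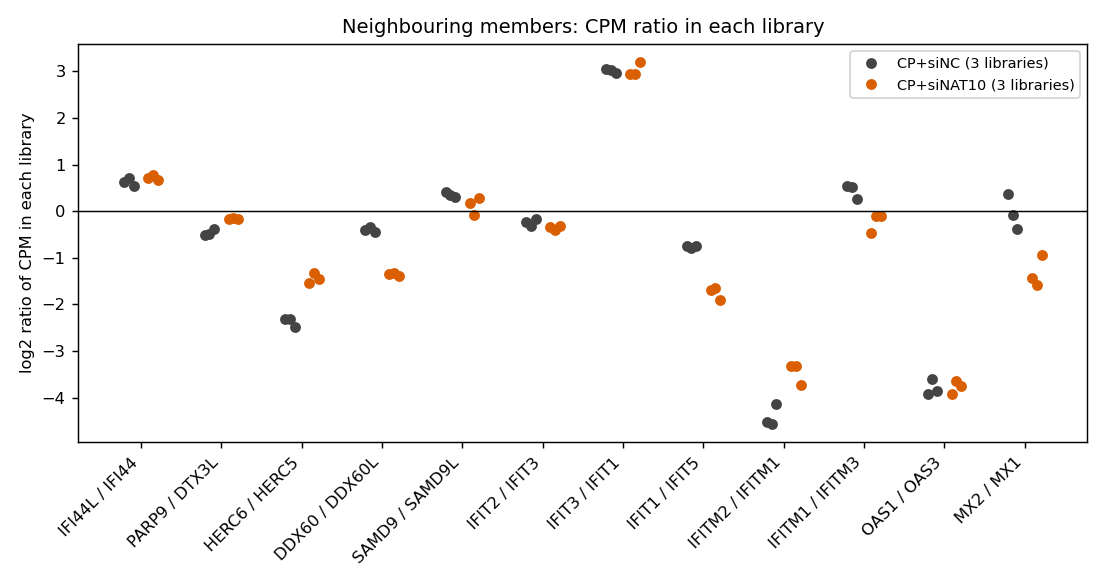
Points are the log2 ratio of CPM between 2 neighbouring genes in each library, dark for CP+siNC and orange for CP+siNAT10. The ratio of DDX60 to DDX60L went from between -0.45 and -0.34 to between -1.39 and -1.32, while that of OAS1 to OAS3 overlapped.

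Upstream of these genes, transcripts of the interferons themselves were scarce. Of 22 interferon genes, 14 had no count in any library, among them IFNB1, IFNL1 and IFNG, where a count of 0 could stand for up to 3 counts, or 0.159 CPM in the shallowest library, a limit that covers counting error only. Only IFNE and IFNL4 were tested. IFNE, an epithelial type I interferon, was called higher, at 0.690, 0.747 and 0.779 CPM against 1.42, 1.19 and 1.22 CPM (log2 fold change 0.78, SE 0.255, adjusted p 0.0135). IFNL4 was not called at 0.36 (SE 0.402).

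Of the 6 receptor genes, 2 (33.3%) were called lower, both chains of the type I receptor, against 22.3% of all tested genes. The number called higher was 0, against 21.8% of all tested genes. IFNAR1 lay at 85.1, 85.5 and 91.0 CPM against 73.1, 72.5 and 76.6 CPM (log2 fold change -0.23, SE 0.0397, adjusted p 1.72e-05). IFNAR2 lay at 46.5, 43.3 and 43.3 CPM against 34.6, 32.4 and 33.5 CPM (log2 fold change -0.40, SE 0.0484, adjusted p 6.43e-08). The receptors for other interferons, IFNLR1 at 0.18, IL10RB at 0.07, IFNGR1 at 0.02 and IFNGR2 at -0.02, were not called.

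Kinases and STAT proteins that carry the signal did not share a direction. JAK1, the kinase shared by all interferon receptors, rose from 151, 159 and 157 CPM to 213, 225 and 222 CPM (log2 fold change 0.50, SE 0.0345, adjusted p 1.58e-12), and TYK2 rose by a log2 fold change of 0.28. STAT5B was called higher at 0.42, STAT3 was called lower at -0.14, and JAK2 at -0.12 (SE 0.112), STAT5A at 0.04 and STAT6 at -0.08 were not called. Both type I receptor chains thus fell while the kinases JAK1 and TYK2 rose.

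The counts of the lists below stand beside 22.3% called lower and 21.8% called higher of all tested genes. Of 17 genes for nucleic acid sensing and IRF activation, 15 were tested, 7 were lower (46.7%) and 3 higher, and the median was -0.07. RIGI, the sensor of RNA ends known as RIG-I, fell from 18.9, 20.2 and 19.7 CPM to 10.4, 13.7 and 10.7 CPM (log2 fold change -0.76, SE 0.0815, adjusted p 9.00e-09). IRF3, the factor that switches on IFNB1 after sensing, was lower at -0.29, and IFI16, a DNA sensor, was higher at 0.35. Among 11 negative regulators of the pathway, 6 were higher (54.5%) and 1 was lower, with a median of 0.17. TRIM24 (0.43) and PTPN11 (0.23) were among those higher, and PIAS3 (-0.31) was the gene called lower.

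A broader list of 48 other interferon-induced genes did not share the direction of the members. Of its 37 tested genes 9 were lower and 14 higher, 24.3% and 37.8% against the 22.3% and 21.8% of all tested genes, and the median log2 fold change was 0.04. PLSCR1, a lipid scramblase with antiviral activity, was lower at -0.93, CD274, which encodes the checkpoint ligand PD-L1, was lower at -0.88, and BATF3, a transcription factor, was lower at -0.52. The largest called rises were NLRC5 (0.57), SP140L (0.44) and TRIM5 (0.38). CXCL9 had no count in any library. Among 18 genes of MHC class I presentation, which interferons also induce, 9 were lower and 2 higher, with a median of -0.13, and the values included -0.69 for the peptide-trimming enzyme ERAP1, -0.35 for HLA-E, whose reads may be shared with other HLA genes, and -0.34 for TAPBP. Of 19 tested targets of NF-kappaB, a factor that acts beside IRF proteins at IFNB1, 10 were lower (52.6%) and 9 were not called, with a median of -0.48. BIRC3, an inhibitor of apoptosis, was lower at -1.33, CXCL8, a chemokine, at -0.77, and ICAM1, an adhesion molecule, at -0.66. Whether these changes bear on those of the interferon-stimulated genes was not tested.

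**Figure D4:**
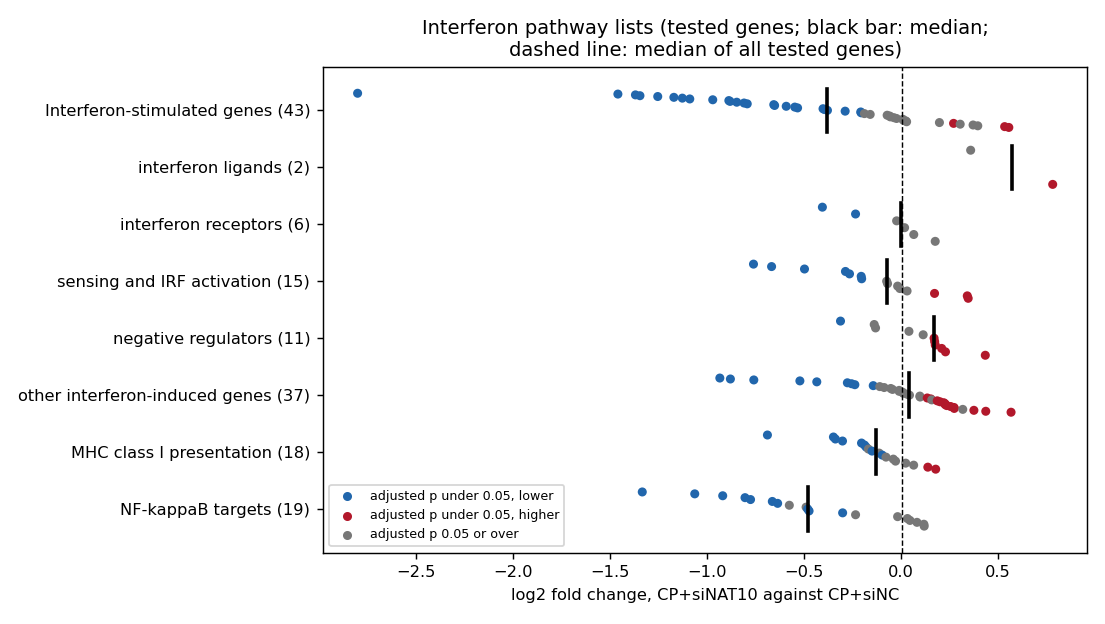
Points are the log2 fold changes of the tested genes in each list, with the number tested in brackets, blue for genes called lower, red for genes called higher and grey for the others, and black bars mark the median. The medians of the interferon-stimulated genes (-0.38) and of the NF-kappaB targets (-0.48) lie left of the dashed median of all tested genes (0.01), and those of the other interferon-induced genes (0.04) and the negative regulators (0.17) lie right of it.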

How the data were processed

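RNA from 6 samples of Cisplatin-treated HK-2 cells was sequenced by the authors, and groups and replicate numbers were taken from the sample labels. The deposited values are raw read counts per gene by the authors, not normalized, with gene positions and a Length column in bases, another deposited unit, which was used for RPKM. The submitters' processing notes, to which these names are credited, list Trimmomatic 0.36, STAR 2.5.3a, featureCounts, Subread 1.5.1, edgeR 3.12.1 and GRCh38. The kit was stranded and tags molecules with UMIs meant for removing duplicates, but whether counting used strand or the UMIs is not given in the sources used here, so reads of genes on opposite strands may not have been told apart. Of the 48 members, 31 share no exon bases with another gene in GENCODE 29, where all 48 positions were found. The deposited lengths of members such as IRF9 and IRF1 differ from those in GENCODE 29. The overlaps given here thus need not hold for the gene models that were counted.

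The counts were fitted with edgeR 4.0.16 under R 4.3.3 (filterByExpr with a minimum count of 10 and a minimum total of 15, TMM, glmQLFit, glmQLFTest), and p-values were adjusted by Benjamini-Hochberg over all 19874 tested genes. The tested genes held at least 99.79% of the counts of each library, and the biological coefficient of variation was 3.00%. CPM and RPKM use the TMM-scaled library size, and SE was taken from the fold change and the F statistic. Scripts were tested on simulated data. No library pair of a group differed as little as sampling noise (mean chi-square per gene between 1.73 and 2.54). Alternatives were run with other scalings and filters, a replicate block, DESeq2 1.42.0, glmTreat and each library left out. Promoters were searched and figures drawn in Python 3.11.15.

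The members and lists were chosen with earlier results of these data known. Values per library were given for NAT10, the 12 members with the largest changes among those called and not overlapping, the 5 highest in RPKM, the 3 largest called rises, the 3 nearest 0, and STAT2, IRF9, IRF1 and IRF7. From each pathway list, up to 3 genes with the smallest p were eligible, together with the receptors, JAK1, JAK2 and TYK2. From the JAK-STAT list 1 gene, not reported here, was taken out after its values were seen, for a reason other than its value, and no count of that list is given. Neighbouring genes, marker genes at or near 0, marker genes with called changes, NLRC5, SP140L, TRIM5, NKG7, PDGFRB, LUM, COL3A1, TRIM21, PARP14, STAT3, STAT5A, STAT6 and LIPA were named after their values were seen.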

Additional observations from a re-analysis of the deposited data

How the results depend on the processing

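The number of interferon-stimulated genes called lower was between 21 and 25 over 14 alternatives, 3 were called higher in every alternative, and between 7 and 9 were called lower past 2-fold. ISG20 left the genes past 2-fold, and MX2 joined them, without CP+siNC replicate 3 (log2 fold changes -0.99 and -1.11) or without CP+siNAT10 replicate 3 (-0.99 and -1.07). TRIM22 joined them without CP+siNAT10 replicate 2, and ISG20 was not tested under the strict filter. The lowest number came from the strict filter of 5 CPM, under which 35 members were tested and OAS1, ISG20, TRIM22 and MX2 were not. All 3 genes called higher were shared with every alternative, and MX2 was the only other gene that lost its call, with a highest adjusted p of 0.154. The median log2 fold change of the members was -0.34 with library size only, which moved the median of all genes to 0.04, and -0.37 with no filter, where 48 members were tested, and it lay between -0.40 and -0.36 when each library was left out. The cause was not tested. Against a log2 fold change of 1 itself (glmTreat), 5 members were called lower past 2-fold, OASL, IFIT1, IFIT2, IFIT3 and IFI44, in place of 8, since this test asks for a change beyond that limit.

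With the replicate number as a block, 24 members were called lower and 3 higher, and the MX2 call was lost (adjusted p 0.0602). Samples with the same number did not deviate together (correlations of -0.04, 0.02 and -0.15), so the numbers were not treated as pairs. Depth limits the members under about 2 CPM (TLR3, MX1, MX2, IFITM2 and USP18), whose SE lay between 0.208 and 0.344.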
